A study of Mus musculus with 39 samples.

Results

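RNAs for 10 antioxidant proteins of mouse liver were followed across a sucrose gradient: the superoxide dismutases Sod1 and Sod2, the peroxiredoxins Prdx1, Prdx2, Prdx3, Prdx4, Prdx5 and Prdx6, the thioredoxin Txn1 and the glutathione peroxidase Gpx1. They were chosen by symbol, and all 10 are among the 13230 genes listed for both gradients. By where the encoded protein is known to work, 5 were grouped as cytosolic (Sod1, Prdx1, Prdx2, Prdx6, Txn1), 3 as mitochondrial (Sod2, Prdx3, Prdx5) and 1 as endoplasmic reticulum (ER) lumen (Prdx4), while Gpx1, whose protein is found in both cytosol and mitochondria, was left outside these classes.

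Superoxide is a by-product of respiration and of many liver oxidases. Superoxide dismutases convert it to hydrogen peroxide, which peroxiredoxins, glutathione peroxidases and catalase then reduce. A typical peroxiredoxin reacts with peroxide through an active-site cysteine and is returned to its reduced form by thioredoxin, which is in turn reduced by thioredoxin reductase with NADPH, whereas Gpx1 carries a selenocysteine and draws on glutathione. Hepatocytes carry out much of the body's detoxification and hold these enzymes in several compartments, each with its own set.

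Liver of wild-type FVB female mice was homogenized without detergent, cleared of nuclei and spun through a 10-50% sucrose gradient in the method named ATLAS-Seq, so that membranes and RNA-protein complexes stay together and spread by their sedimentation. The 39 libraries all carry the same genotype and no treatment, and differ only in the fraction and the gradient. Gradient 1 was sequenced in 17 fractions (numbers 4 to 19, and 21) and gradient 2 in 22 fractions (numbers 3 to 24), with higher numbers denser. There is 1 library per fraction and gradient, so the replicate is the gradient (n = 2). Every p-value below rests only on the spread between these 2 gradients, that of the gene itself and, through the model used, that of all genes tested.

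Levels are TPM, Kallisto's transcript abundance, a share of the RNA in that fraction corrected for transcript length, so levels of different genes can be compared. A high TPM says that a gene takes a large share of the RNA of a fraction, not that the fraction holds much of that RNA. TPM keeps no read counts, so the depth of each library is unknown and no counting interval can be given. Whole-library totals ran from 998099 to 999202 TPM. Liver is a mixed tissue, but each gradient was loaded with 1 homogenate, and its fractions thus share the same starting cells. Marker levels along a gradient therefore do not tell how many cells of a type there were. Between the gradients, fewer cells of a type and less RNA per cell cannot be told apart in bulk RNA. The 6 hepatocyte markers (Alb, Ttr, Apoa1, Cps1, Cyp2e1, Serpina1a) summed to between 7379 and 58753 TPM in the libraries compared below, none of them at 0. Sums for other cell types were lower: 66.4 to 496 TPM for 3 red blood cell markers, 37.1 to 163 for 5 of Kupffer cells, 9.17 to 75.3 for 4 of stellate cells, 4.78 to 28.8 for 4 of sinusoidal endothelium and 1.72 to 5.57 for 2 of cholangiocytes. Except for cholangiocytes, these sums were lower in the dense than in the light zone defined below: the median library went from 51401 to 9518 TPM for hepatocytes in gradient 1 and from 36966 to 19092 in gradient 2, from 140 to 41.5 and 49.7 for Kupffer cells, from 27.8 to 6.25 and 16.8 to 5.29 for endothelium, and from 37.4 to 11.3 and 51.3 to 17.7 for stellate cells. The hepatocyte markers did not move together. Mean TPM of Cps1 rose from 759 in the light to 3284 in the dense zone of gradient 1, and from 1283 to 5515 in gradient 2. Ttr went from 1850 to 1503 and from 1423 to 3310, and Apoa1 from 2187 to 892 and from 1828 to 2786. Alb, Cyp2e1 and Serpina1a were lower in the dense zone of both gradients. Clec4f (Kupffer) and Des (stellate) were not called in the test below. The part of these cell types in the changes given below was not tested.

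The coding stretch around the active site shows how the members are related, and is printed for the 7 members in which it was located from GENCODE M21 transcripts of GRCm38 (the mm10 assembly). Each line gives 27 coding bases, 5′ to 3′, with the codon of the peroxide-reacting cysteine (in Txn1 the first cysteine of the redox pair, in Gpx1 the selenocysteine) in capitals.
Prdx1: tttacttttgtgTGTcccacggagatc
Prdx2: ttcacttttgttTGCcccacggagatc
Prdx3: ttcacatttgtgTGTcctacagaaatt
Prdx4: ttcacctttgtgTGTccaactgaaatc
Prdx6: tttaccccagtgTGCaccacagaactt
Txn1: tctgctacgtggTGTggaccttgcaaa
Gpx1: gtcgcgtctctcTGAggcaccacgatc
Prdx1 and Prdx2, both cytosolic, share 24 of these 27 bases, and mitochondrial Prdx3 shares 23 with ER-lumen Prdx4. Prdx6, which has a single catalytic cysteine and is not reduced by thioredoxin, shares 16 to 18 with Prdx1, Prdx2, Prdx3 and Prdx4. In Gpx1 the capital triplet is a stop codon in the standard code, the only in-frame stop among the 10 coding sequences, and is read as selenocysteine.

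Together the 10 RNAs made up 0.597% (fraction 4) to 1.99% (fraction 9) of all TPM in gradient 1 and 0.611% (fraction 5) to 1.93% (fraction 10) in gradient 2. Gpx1 was the most abundant, at a mean of 4963 TPM over the fractions of gradient 1 and 4173 in gradient 2. Sod1 followed with 3778 and 3918, and Prdx1 with 2440 and 2018. The remaining order was the same in both gradients: Prdx5 (823 and 740), Prdx6 (678 and 632), Txn1 (516 and 390), Prdx2 (279 and 269), Sod2 (202 and 175), Prdx3 (167 and 143) and Prdx4 (25.4 and 40.0). These means cover 17 fractions in gradient 1 and 22 in gradient 2. No neighbours in this order overlapped between gradients, but between Gpx1 and Sod1, Prdx5 and Prdx6, Prdx6 and Txn1, Txn1 and Prdx2, and Sod2 and Prdx3 the smallest gap was narrower than the difference between the gradients for at least one of the pair.

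The mix of these RNAs changed along the gradient. In gradient 1, Gpx1 held 69.5% of the TPM of the 10 genes in fraction 9 and 12.1% in fraction 21, while Prdx1 held 4.20% in fraction 6 and 41.5% in fraction 19. In gradient 2, Gpx1 held 66.0% in fraction 8 and 15.1% in fraction 23, and Prdx1 4.65% in fraction 8 and 36.9% in fraction 19. Sod1 held between 15.0% and 43.3% throughout gradient 1 and between 19.5% and 42.5% throughout gradient 2.

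**Figure D1:**
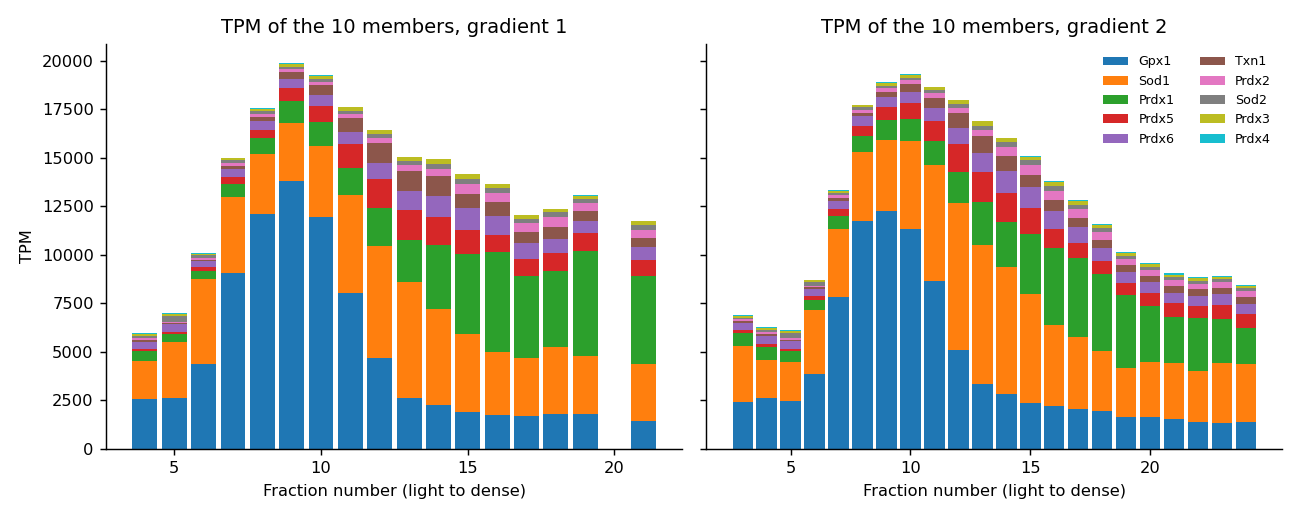
TPM of the 10 genes in every library, stacked, against fraction number from light to dense, for gradient 1 (left) and gradient 2 (right). The Gpx1 block is tallest at fraction 9 in both gradients (13805 and 12250 TPM). The Prdx1 block is tallest at fraction 19 in gradient 1 (5425 TPM) and fraction 17 in gradient 2 (4056 TPM), and is smaller in the last fraction of each (4536 and 1861 TPM).

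Profiles were made by dividing each TPM by the gene's mean over its gradient, and the position of a profile was summarised as the mean fraction number weighted by TPM over the 17 fraction numbers both gradients share. From light to dense the order was Gpx1 at 10.1 ± 0.20 (SD, n = 2), Prdx4 at 11.4 ± 1.63, Sod1 at 12.3 ± 0.17, Sod2 at 12.6 ± 0.30, Prdx3 at 13.1 ± 0.23, Prdx6 at 13.1 ± 0.19, Prdx5 at 13.6 ± 0.22, Txn1 at 13.8 ± 0.17, Prdx2 at 14.3 ± 0.25 and Prdx1 at 15.1 ± 0.37. The cytosolic RNAs thus ran from 12.3 to 15.1 and the mitochondrial ones from 12.6 to 13.6, inside the cytosolic range. Prdx3 and Prdx6, and likewise Prdx5 and Txn1, were no farther apart than the SD of one of the pair. The SD of Prdx4 spans its distance to Gpx1, Sod1 and Sod2, so its place among them was not resolved. Over all 22 fractions of gradient 2 every mean fraction was higher, and Prdx4, at 14.3, lay beyond Sod1 (13.4), Sod2 (13.8), Prdx3 (14.1) and Prdx6 (14.1), while the other 9 kept their order.

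Gradients 1 and 2 gave nearly the same profile for most of these RNAs. Across the 17 shared fractions, Pearson's R between gradients was 0.992 for Gpx1, 0.991 for Txn1, 0.983 for Prdx6, 0.971 for Prdx5, 0.961 for Prdx2, 0.945 for Prdx1, 0.903 for both Sod1 and Prdx3 and 0.821 for Sod2. The median over 11371 genes was 0.904. Prdx4 stood apart at 0.232. These correlations are over neighboring fractions of the same gradient, which are not independent, and are given as descriptions.

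**Figure D2:**
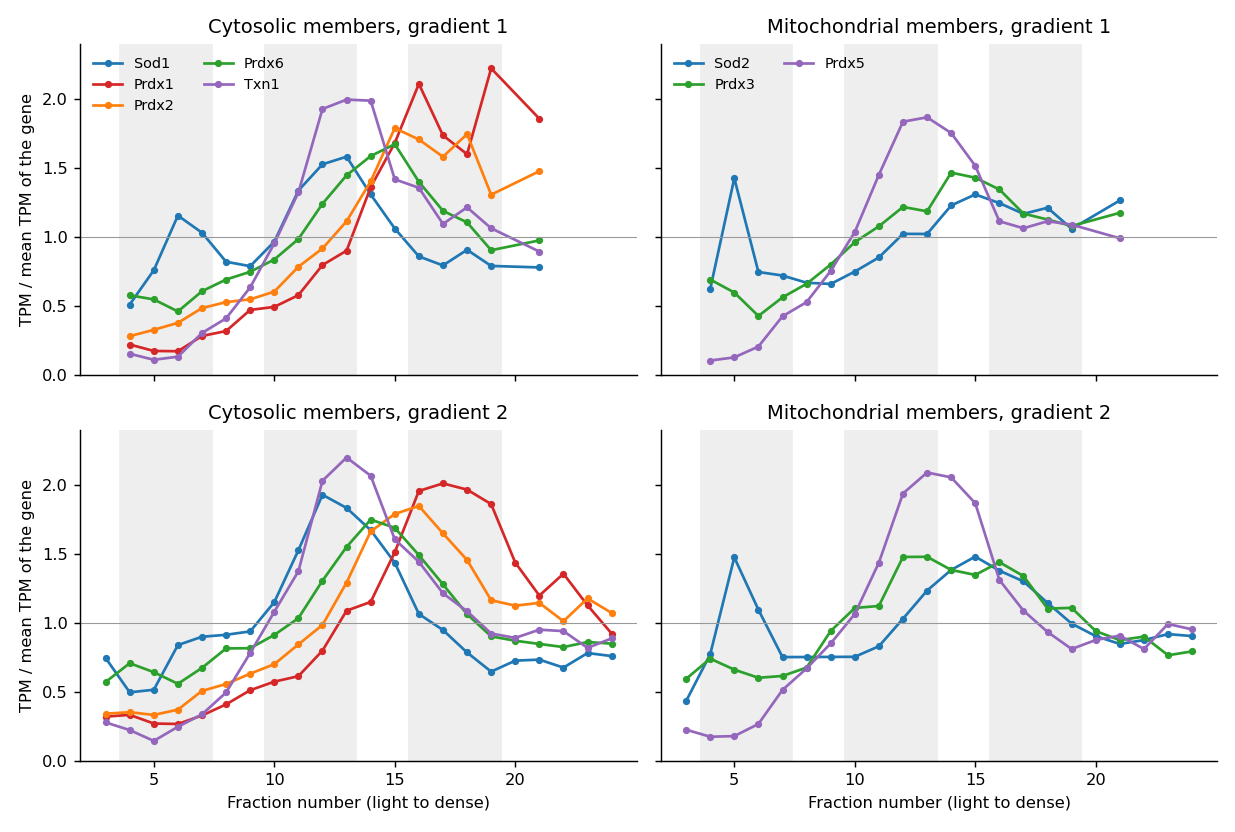
TPM divided by the gene's mean over its gradient, against fraction number, for the 5 cytosolic (left) and 3 mitochondrial (right) RNAs in gradient 1 (top) and gradient 2 (bottom), with 1 point per library and the light, middle and dense zones shaded. Txn1 and Prdx5 are highest at fraction 13 in both gradients, Prdx1 at fraction 19 or 17, and Sod2 has a narrow peak at fraction 5.

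To test change along the gradient, fractions were grouped into a light zone (4 to 7), a middle zone (10 to 13) and a dense zone (16 to 19), log2(TPM + 1) was averaged over the 4 libraries of a zone in each gradient, and limma was fitted to the 6 zone values for all 11754 genes whose TPM averaged 1 or more, with Benjamini-Hochberg adjustment over all of them. All 10 RNAs passed that filter. Changes are on the log2(TPM + 1) scale, and a gene is called at an adjusted p under 0.05. Of all genes tested, 61.9% were called between the dense and light zones (22.3% higher in the dense zone, 39.6% lower), 47.5% between the middle and light zones (23.5% higher, 24.1% lower) and 27.3% between the dense and middle zones (4.79% higher, 22.5% lower). The median change of all genes was -0.43, 0.05 and -0.28, respectively, so a gene with a change of 0 stood above the median gene from light to dense.

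From the light to the dense zone 6 of the 10 RNAs rose and 1 fell, beside 22.3% and 39.6% of all genes: Prdx1, Prdx2, Prdx6 and Txn1 of the cytosolic class and Prdx3 and Prdx5 of the mitochondrial class were higher in the dense zone, and Gpx1 was lower. From light to middle 8 rose, all but Sod2 and Prdx4, beside 23.5% of all genes. From middle to dense Prdx1 and Prdx2 rose further while Sod1 and Gpx1 fell, beside 4.79% and 22.5% of all genes. These last 4 calls rest on both middle values: without either of them limma called 0 of the 11754 genes from middle to dense (3374 and 3510 at an unadjusted p under 0.05), and the adjusted p was 0.0577 or 0.0631 for Prdx1, 0.109 or 0.0815 for Prdx2, 0.133 or 0.248 for Sod1 and 0.0573 or 0.0606 for Gpx1, with every direction as before.

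**Figure D3:**
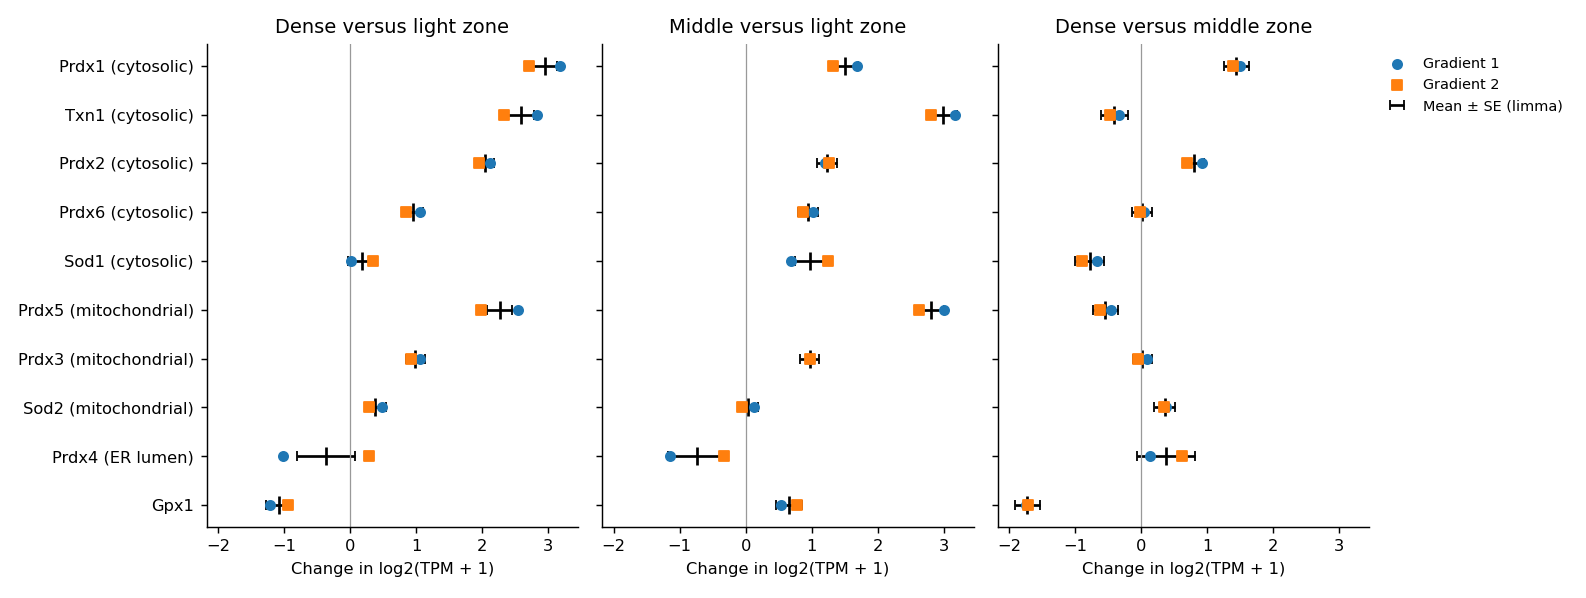
Change in log2(TPM + 1) between zones for each of the 10 genes, with the value in gradient 1 (circles), in gradient 2 (squares) and their mean ± SE from limma (bars). Prdx1, Txn1, Prdx2 and Prdx5 lie near or above 2 for dense versus light, Gpx1 lies near -1.7 for dense versus middle, and Prdx4 has its gradients on opposite sides of 0 for dense versus light.

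Prdx1, the abundant cytosolic 2-cysteine peroxiredoxin, had the densest profile. Its light fractions held 424 to 693 TPM in gradient 1 and 539 to 672 in gradient 2, its middle fractions 1208 to 2202 and 1157 to 2195, and its dense fractions 3908 to 5425 and 3754 to 4056. No dense value overlapped a middle one, and no middle value a light one, in either gradient. The change from light to dense was 2.94 (SE 0.19, adjusted p = 3.06e-04), or 7.69-fold, with 3.18 in gradient 1 and 2.71 in gradient 2, and it split into 1.50 from light to middle (adjusted p = 0.00267) and 1.44 from middle to dense (adjusted p = 0.00756). Beyond the dense zone, gradient 2 fell from 3754 TPM in fraction 19 to 1861 in fraction 24, a stretch of which gradient 1 has only fraction 21, at 4536.

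Prdx2 encodes the close relative of Prdx1 that is especially plentiful in red blood cells. It held 79.0 to 136 TPM in light fractions of gradient 1 and 89.5 to 136 in those of gradient 2, against 365 to 488 and 313 to 497 in dense fractions. Light and dense values did not overlap in either gradient. It rose by 2.04 from light to dense (SE 0.15, adjusted p = 3.34e-04) and by 0.80 from middle to dense (SE 0.15, adjusted p = 0.0136), the latter with an adjusted p of 0.0534 under narrower zones. The 3 red blood cell markers in the tables did not move together. Their sum, carried mostly by Hba-a1, went from 258 to 496 TPM in light libraries to 66.4 to 106 in dense ones, and Hba-a1 changed by -2.18 (adjusted p = 8.69e-04) and Hba-a2 by -1.45 (adjusted p = 0.0226). Hba-a2 was near the floor, at zone means of 2.86 TPM (light) and 2.56 (dense) in gradient 1 and 4.65 and 0.47 in gradient 2. Its dense libraries ran from 0 to 10.2 TPM in gradient 1 and from 0 to 1.89 in gradient 2. Alas2 was low, at zone means of 4.07 TPM (light) and 6.57 (dense) in gradient 1 and 4.98 and 10.4 in gradient 2, and changed by 0.76 (adjusted p = 0.0962, and 0.00562 with the gradient as a block, which pairs the zones of the same homogenate). Their part in the result was not tested.

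Txn1, the cytosolic thioredoxin that reduces Prdx1 and Prdx2, reached its highest level at a lighter position than they did. Its lowest values were at fraction 5 (57.6 and 56.2 TPM) and its highest at fraction 13 (1030 and 858 TPM). The change from light to middle was 2.99 (SE 0.21, adjusted p = 0.00110), the largest of the 10, and from middle to dense it was -0.41 (adjusted p = 0.211). The RNA of its reductase, Txnrd1, had a similar course, at 105, 196 and 157 TPM in the light, middle and dense zones of gradient 1 and 92.8, 176 and 121 in gradient 2, with R to Txn1 of 0.917 and 0.852.

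Prdx6, the peroxiredoxin with a single catalytic cysteine and a phospholipase activity, changed less. Its zone means were 373, 765 and 780 TPM in gradient 1 and 408, 759 and 748 in gradient 2. It rose by 0.94 from light to middle (SE 0.15, adjusted p = 0.00521) and differed by 0.01 from middle to dense (SE 0.15). It was highest at fractions 15 (1135 TPM) and 14 (1105 TPM), between the middle and dense zones, which neither zone mean includes.

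Sod1, the copper-zinc superoxide dismutase, was the one cytosolic RNA with no called change from light to dense, at 0.19 (SE 0.22, adjusted p = 0.484). Its zone means were 3270, 5116 and 3170 TPM in gradient 1 and 2692, 6303 and 3372 in gradient 2, a hump with its top at fraction 13 (5982 TPM) or 12 (7553 TPM). The rise from light to middle was 0.97 (SE 0.22, adjusted p = 0.0150) and the fall from middle to dense was -0.78 (SE 0.22, adjusted p = 0.0465). In gradient 1 there was a further maximum at fraction 6 (4370 TPM, against 2873 in fraction 5 and 2984 in fraction 9) where gradient 2 rose steadily (3285 TPM in fraction 6, 3674 in fraction 9). The fall from middle to dense was not called after leaving out any single zone value (adjusted p 0.0945 to 0.248), nor without the TPM filter (0.0602) or after rescaling without the 50 most abundant genes (0.0759), and the rise from light to middle was not called without any 1 of the light and middle values (0.0569 to 0.102). Ccs, the chaperone that delivers copper to Sod1, had another course: 80.1, 400 and 675 TPM in gradient 1 and 79.5, 387 and 521 in gradient 2, a change from light to dense of 2.96 (SE 0.18, adjusted p = 3.01e-04), with R to Sod1 of 0.203 and 0.571.

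Among the mitochondrial RNAs, Prdx5 changed most. Prdx5, whose protein is also found in peroxisomes and cytosol, held 87.4 to 351 TPM in light fractions of gradient 1 and 129 to 380 in those of gradient 2, and peaked at fraction 13 in both (1538 and 1547 TPM). The change from light to middle was 2.81 (SE 0.19, adjusted p = 0.00110), and light and middle values did not overlap. From middle to dense it was -0.54 (SE 0.19), with an adjusted p of 0.0826 without and 0.0375 with the gradient as a block.

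Prdx3, the peroxiredoxin of the mitochondrial matrix, held 95.4, 186 and 197 TPM in the zones of gradient 1 and 93.3, 185 and 178 in gradient 2. It rose by 0.97 from light to middle (SE 0.15, adjusted p = 0.00412), by the same 0.97 in each gradient, and differed by 0.02 from middle to dense. Txn2, the mitochondrial thioredoxin that reduces Prdx3, did not share this course: it held 369, 396 and 129 TPM in gradient 1 and 357, 510 and 159 in gradient 2, and fell by 1.29 from light to dense (SE 0.20, adjusted p = 0.00269), with R to Prdx3 of -0.621 and -0.301.

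Sod2, the manganese superoxide dismutase of the matrix, was nearly flat by zone, at 178, 184 and 236 TPM in gradient 1 and 179, 168 and 211 in gradient 2. The change from light to dense was 0.38 (SE 0.15), with an adjusted p of 0.0727 without and 0.0191 with the gradient as a block. From middle to dense it was 0.35 (SE 0.15, adjusted p = 0.147, and 0.0379 with the block). The light mean hides a single-fraction peak: fraction 5 held 288 TPM in gradient 1, between 126 in fraction 4 and 151 in fraction 6, and 258 TPM in gradient 2, between 135 and 192. In gradient 1 no other fraction was higher, and in gradient 2 only fraction 15, at 259 TPM, was. The same fraction was the lowest for Txn1 in both gradients and the lowest for Prdx2 in gradient 2. The Sod2 peak was noticed in these values and was not tested.

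Prdx4, the peroxiredoxin that reduces peroxide in the ER lumen and is the only one of the family made with a signal peptide, was the least abundant and the least repeatable. In gradient 1 it held 33.6 to 43.4 TPM in light fractions, 9.91 to 36.2 in middle ones and 15.1 to 30.6 in dense ones. In gradient 2 it held 29.7 to 40.8, 21.6 to 37.6 and 32.3 to 56.1. Light values were above all dense values in gradient 1, whereas in gradient 2 light and dense values overlapped and the dense mean was the higher (45.5 against 36.5 TPM). The change from light to dense was -1.01 in gradient 1 and 0.29 in gradient 2, with a mean of -0.36 (SE 0.44, adjusted p = 0.495). Prdx4 was low in fractions 12 to 14 of both gradients, at 9.91 to 14.0 TPM and 21.6 to 24.2 TPM.

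Set against 8 other RNAs of ER-lumen proteins (Hspa5, Hsp90b1, Calr, P4hb, Pdia3, Pdia4, Pdia6, Ppib), Prdx4 differed in the same direction in both gradients. The median of these 8 changed by -2.28 from light to dense in gradient 1 and by -1.21 in gradient 2. In the test 6 of the 8 fell, beside 39.6% of all genes (7 with the gradient as a block, beside 50%). After their mean was subtracted, Prdx4 changed by 1.32 in gradient 1 and 1.44 in gradient 2, with a mean of 1.38 (SE 0.76). The adjusted p was 0.140, with 38.7% of all genes called in that comparison, and 0.0218 with the gradient as a block, with 55.7% of all genes called. The mean profile of the 8 genes had R to Prdx4 of 0.792 in gradient 1 and 0.272 in gradient 2. This offset was not particular to Prdx4: from light to dense Ppib, 1 of the 8, changed by -1.54 in gradient 1 and -0.11 in gradient 2, and Txndc12, another thioredoxin-fold protein of the ER, by -0.80 and -0.15. This comparison, and Txndc12, were chosen after the values had been seen.

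**Figure D4:**
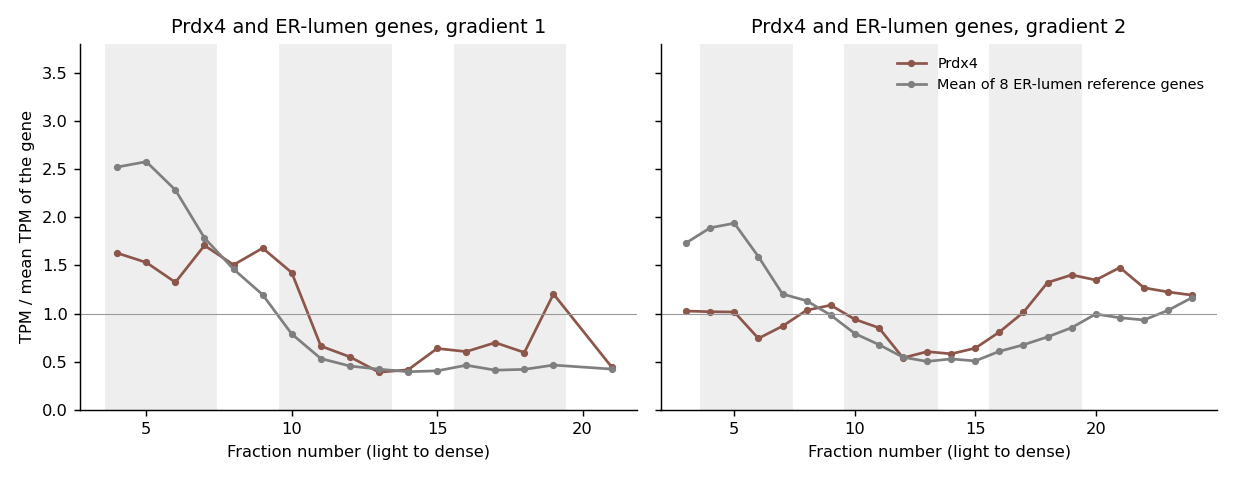
TPM divided by the gene's mean for Prdx4 and the average of this ratio over 8 ER-lumen reference genes, against fraction number, in gradient 1 (left) and gradient 2 (right), with zones shaded. In light fractions 4 to 6 the reference lies above Prdx4 in both gradients, and in gradient 2 Prdx4 lies above it from fraction 13 on, with its highest value at fraction 21 (59.1 TPM).

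Gpx1, the selenium-dependent glutathione peroxidase, formed a peak of its own between the light and middle zones. It rose from 2567 TPM in fraction 4 to 13805 in fraction 9 of gradient 1 and from 2631 to 12250 in gradient 2, and was down to 2594 and 3334 by fraction 13. Dense fractions held 1677 to 1806 TPM in gradient 1 and 1645 to 2217 in gradient 2, below every light and middle value of the same gradient. The change from middle to dense was -1.72 (SE 0.19, adjusted p = 0.00702), -1.74 in gradient 1 and -1.71 in gradient 2, and the change from light to dense was -1.07 (SE 0.19, adjusted p = 0.00494). The rise of 0.65 from light to middle (SE 0.19, adjusted p = 0.0372) was not called after leaving out any single zone value (adjusted p 0.0603 to 0.181) or after rescaling without the 50 most abundant genes (0.0664), and its light and middle values overlapped in both gradients.

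Gpx4, another selenoprotein and the peroxidase of membrane lipids, followed Gpx1 closely, with R of 0.997 in gradient 1 and 0.993 in gradient 2. Its zone means were 457, 708 and 200 TPM in gradient 1 and 377, 705 and 214 in gradient 2, a change from middle to dense of -1.64 (SE 0.17, adjusted p = 0.00700). Txn2 was also close to Gpx1 (R 0.962 and 0.974). Sod2 (R -0.739 and -0.670), Prdx1 (-0.608 and -0.578) and Prdx2 (-0.595 and -0.500) had the most negative R to Gpx1 among the 10.

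**Figure D5:**
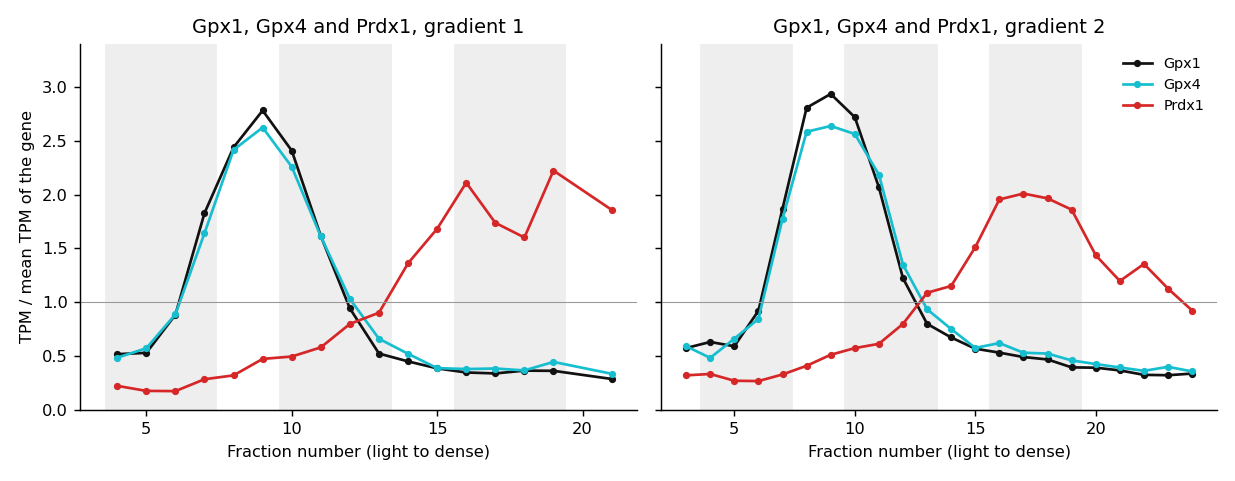
TPM divided by the gene's mean for Gpx1, Gpx4 and Prdx1 against fraction number, in gradient 1 (left) and gradient 2 (right), with zones shaded. Gpx1 and Gpx4 share a peak at fraction 9 in both gradients, where Prdx1 is below its own mean.

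Single RNAs were compared with the cytosolic class by subtracting the mean of the 5 cytosolic RNAs in the same gradient and zone and fitting the same model. In this fit 85.5% of all genes were called from light to dense, 78.4% from light to middle and 35.4% from middle to dense. Each p-value sets a single gene against this mean and leaves out the spread of genes within a class. A difference between compartments was therefore not tested. From light to dense, Gpx1 changed by -2.81 relative to the cytosolic mean (SE 0.21, adjusted p = 8.18e-05), Prdx4 by -2.10 (SE 0.48, adjusted p = 0.00703), Sod2 by -1.36 (SE 0.13, adjusted p = 2.11e-04) and Prdx3 by -0.75 (SE 0.13, adjusted p = 0.00213). Prdx5 went the other way, by 0.53 (SE 0.16, adjusted p = 0.0229), so the 3 mitochondrial RNAs did not share a direction. The cytosolic RNAs themselves lay from -1.55 (Sod1) to 1.20 (Prdx1) around their mean, a range that on the mean of the gradients holds Sod2, Prdx3 and Prdx5 but neither Prdx4 nor Gpx1. In gradient 2 alone, Sod2 (-1.36) and Prdx4 (-1.35) were level and both just below Sod1 (-1.29), whereas in gradient 1 Sod2 (-1.35) lay above and Prdx4 (-2.85) below Sod1 (-1.82).

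From light to middle all 5 were again called relative to the cytosolic mean, with Prdx5 higher at 1.29 (adjusted p = 8.41e-04) and the others lower, from -0.56 for Prdx3 to -2.26 for Prdx4. The calls of Prdx3 and Gpx1 there did not survive every omission: that of Prdx3 was lost without the light value of gradient 1 (adjusted p = 0.0505) or either middle value (0.0566 and 0.0639), and that of Gpx1 without the light or the middle value of gradient 1 (0.0682 and 0.0656). From middle to dense 2 were called, Gpx1 at -1.94 (adjusted p = 0.00349) and Prdx5 at -0.76 (adjusted p = 0.0171). The call of Prdx5 from light to dense was lost without the light value of gradient 1 (adjusted p = 0.131), without either dense value (0.0888 and 0.0521) and without the middle value of gradient 1 (0.0509), and its call from middle to dense was lost without any single middle or dense value (0.0511 to 0.105) and under quantile normalization (0.0560).

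Profiles were also compared in pairs. The median R was 0.662 in gradient 1 and 0.738 in gradient 2 over the 10 pairs within the cytosolic class, 0.705 and 0.708 over the 15 pairs of a cytosolic with a mitochondrial RNA, and 0.612 and 0.487 over the 3 mitochondrial pairs. Txn1 and Prdx5, of different classes, made the closest pair of all, with R of 0.984 and 0.983. Prdx6 and Prdx3, also of different classes, had 0.946 and 0.906, and Prdx1 and Prdx2 0.930 and 0.892. Sod1 and Prdx1, both cytosolic, had -0.08 and 0.08. All these pairs are from the same libraries.

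Each profile was also matched against the 6599 genes averaging 10 TPM or more in each gradient, ranked by the lower of the 2 values of R. Prdx1 was nearest to Vdac3, Akr1c6 and Sult2a2 (lower R 0.980 to 0.984), and Prdx2 to Arpc3, Hebp1 and Park7 (0.986 to 0.988). Txn1 was nearest to Snrpd3, Fabp5 and Ndufab1 (0.985 to 0.991), and Prdx5 to Isoc2a, Pfn1 and Ttc36 (0.987 to 0.993). Prdx6 had Atp5h and Atp5g3 among its nearest (0.974 and 0.964), Prdx3 to Lyplal1, Atp5f1 and Hnrnpll (0.959 to 0.968), and Sod1 to Cox4i1, Pmvk and Gabarapl1 (0.898 to 0.931). Gpx1 had Uqcc2, Gpx4 and Iscu (0.993 to 0.994). The closest genes to Sod2 were Actr1a, Surf6 and Nudcd3 (0.867 to 0.885) and those to Prdx4 were H2-Q10, Apcs and Abhd3 (0.889). For these 2 RNAs even the nearest profile was less alike than the nearest one of the other 8.

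Other redox genes, listed by compartment, give the setting. Of 19 cytosolic ones, 7 rose from light to dense and 3 fell, beside 22.3% and 39.6% of all genes. With the gradient as a block 14 rose and 4 fell, beside 30.5% and 50% of all genes. Park7, a peroxide-sensing chaperone, rose by 2.84 (SE 0.21, adjusted p = 3.53e-04). Gclc, the catalytic subunit of the first enzyme of glutathione synthesis, changed by 1.11 (adjusted p = 0.0513, and 4.07e-04 with the block), and Msrb1, a selenoprotein that reduces oxidized methionine, by 0.48 (adjusted p = 0.0549, and 0.00736 with the block). Srxn1, the sulfiredoxin that repairs overoxidized peroxiredoxins such as Prdx1, fell by 1.97 (SE 0.17, adjusted p = 4.50e-04), with R to Prdx1 of -0.856 and -0.858.

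From light to dense 22.3% of all genes rose and 39.6% fell (30.5% and 50% with the block). Of 8 mitochondrial redox genes 3 rose and 4 fell from light to dense, among them Idh2, which supplies NADPH in the matrix (3.32, adjusted p = 3.01e-04), and Gpx4, which also works in cytosol (-0.83, adjusted p = 0.00694). Of 15 ER-lumen or secreted ones 12 fell (14 with the block), and the changes of all 15 were below 0 in both gradients, led in abundance by Sepp1, the plasma selenoprotein that carries selenium (-1.29, adjusted p = 0.0129), P4hb, the main protein disulfide isomerase (-2.73, adjusted p = 0.00324), and Sep15, a selenoprotein of the ER (-1.28, adjusted p = 0.0153). Both peroxisomal genes rose, Cat, the catalase that breaks down peroxide there, by 2.17 (adjusted p = 4.79e-04) and Gstk1 by 2.29 (adjusted p = 3.30e-04), and so did the 3 genes of a last group, Keap1, Nfe2l2 and Hmox1 (0.70 to 1.66). The medians were 0.47, -0.36, -1.50, 2.23 and 0.82 for these 5 groups, beside -0.43 for all genes. From light to middle, 6 of the 8 mitochondrial ones rose and 0 fell, with or without the block. Of all genes 23.5% rose and 24.1% fell there (4369 and 4109 of 11754 with the block). From middle to dense, 7 of the cytosolic and 5 of the mitochondrial redox genes fell, and 5 cytosolic and both peroxisomal ones rose. Of all genes 22.5% fell and 4.79% rose. With the block 8 cytosolic and 5 mitochondrial ones fell (39.3% of all genes), and 6 cytosolic, both peroxisomal and 2 mitochondrial ones rose (14.1%). The median change of the ER-lumen or secreted ones was -0.03. In groups of well-known enzymes, all 7 cytosolic ones (such as Gapdh) rose from light to dense with a median of 2.38. In the same comparison 5 of 7 of the mitochondrial matrix (such as Mdh2) rose with a median of 2.72 (7 of 7 with the block). Srxn1, Ccs, Txnrd1, Txn2 and Gpx4 are described with their partners above because of their known role, and were singled out after their values had been seen.

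The genes lie apart in the genome. In GRCm38 coordinates of GENCODE M21, Sod1 is at chr16:90220754-90226329 and Sod2 at chr17:13006846-13040063, both on the plus strand. Prdx1 is at chr4:116685544-116700822 (plus), Prdx2 at chr8:84969587-84974834 (plus), Prdx3 at chr19:60864051-60874556 (minus), Prdx4 at chrX:155323918-155340754 (minus), Prdx5 at chr19:6906697-6910106 (minus) and Prdx6 at chr1:161240112-161251219 (minus). Txn1 is at chr4:57943373-57956411 (minus) and Gpx1 at chr9:108338903-108340343 (plus). TPM covers the exons of each, untranslated regions included. Scaf4 overlaps Sod1, Rnaseh2a and Junb overlap Prdx2, and Trmt112 overlaps Prdx5, all on the opposite strand. The libraries were stranded, and whether the pseudo-alignment used the strand is not given in the sources used here, so a part of these 3 values may come from the partner gene. The annotation holds a Prdx6 pseudogene, Prdx6-ps2, which could share reads with Prdx6. Coding length ran from 315 bases (Txn1) to 822 (Prdx4), and across the 10 genes it had R of -0.31 and -0.16 with the weighted mean fraction in gradients 1 and 2, while transcript length had R of 0.20 and 0.040. Prdx1 and Gpx1, at opposite ends of the order, have coding lengths of 597 and 603 bases and transcript lengths of 2294 and 1072.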

How the data were processed

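RNA of the gradient fractions was sequenced as stranded, ribosomal-RNA-depleted libraries made from equal RNA mass. The authors pseudo-aligned the reads to mm10 RefSeq transcripts with Kallisto and deposited TPM per gene symbol. Neither the Kallisto version nor the step from transcripts to gene symbols is given in the sources used here. The submitters' processing notes also name bcl2fastq 2.16.0.10. TPM is relative: a rise of other RNAs in a fraction lowers a gene's value.

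From the TPM values, profiles (TPM divided by its mean), weighted mean fractions and Pearson's R were computed as descriptions. Zone changes were tested with limma 3.58.1 (eBayes with trend, no block) in R 4.3.3 on log2(TPM + 1), which understates changes of low genes, and with the mean of the 5 cytosolic RNAs subtracted. The zones of a gradient come from 1 homogenate, and their deviations correlated across genes between gradients (r = 0.665 for light and middle, 0.540 for light and dense, 0.798 for middle and dense), so the fit with the gradient as a block is given where it changes the call of a value in the text. Alternatives were the pseudocount, the TPM filter, rescaling, quantile normalization, zone borders and leaving out each zone value.

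The genes, lists and tests were chosen with earlier results of these data known. Named genes are the 10 members, the 3 nearest profiles of each (1 of them is not reported here), and up to 3 of the most abundant redox genes per class, besides partners named as chosen afterwards. Python 3.11.15, NumPy 2.4.6, pandas 2.3.3 and SciPy 1.17.1 were used, with gene models of GENCODE M21. Protein sequences and protein profiles were not analysed here.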

Additional observations from a re-analysis of the deposited data

Results flagged for a closer look

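The 2 gradients gave opposite signs for 4 zone changes of the 10 RNAs and for 1 change, relative to the cytosolic mean, of the 5 RNAs outside that class, and the difference between gradients was not tested, since each gradient gives 1 value. Prdx4 changed by -1.01 from light to dense in gradient 1 and by 0.29 in gradient 2. Relative to the cytosolic RNAs, Prdx4 changed by -0.16 and 0.48 from middle to dense. Sod2 changed by 0.12 and -0.059 from light to middle. From middle to dense, Prdx3 changed by 0.088 and -0.051 and Prdx6 by 0.042 and -0.016. These changes of Sod2, Prdx3 and Prdx6 were smaller than their SE in both gradients.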

How the results depend on the processing

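Of the zone changes of the 10 RNAs recomputed under the alternatives, 351 kept direction and call, 26 lost the call, 4 gained one and 9 changed sign, and of the relative changes 216 kept both, 14 lost the call, 1 gained one and 3 changed sign. These counts leave out the values of 1 gradient alone, which have no test. No called change turned its sign. The values that changed sign were, from middle to dense under narrower zones -0.12 for Prdx3 and -0.22 for Prdx6, 0.066 for Prdx3 relative to the cytosolic RNAs after quantile normalization, and from light to middle -0.063 for Sod2 after rescaling without the 50 most abundant genes and -0.38 after quantile normalization. Leaving out 1 zone value or 1 gradient gave -1.01 to 0.29 for Prdx4 from light to dense, -0.059 to 0.12 for Sod2 from light to middle, and, from middle to dense, -0.058 to 0.095 for Prdx3, -0.021 to 0.048 for Prdx6, -0.22 to 0.97 for Prdx4 and -0.52 to 0.84 for Prdx4 relative to the cytosolic RNAs. The cause was not tested. With the gradient as a block 9468 genes were called from light to dense (7274 without), 8478 from light to middle (5589 without) and 6275 from middle to dense (3208 without). The block, which pairs the zones, changed no other call among the zone changes of the 10 RNAs, or among the relative changes of the 5 outside the cytosolic class, than those given for Sod2, Prdx5 and Prdx4. Raising the TPM filter to 10 gave 4798 called genes from light to dense (7274 in the main test), fewer genes being tested. Leaving out 1 zone value, so that the lone value of that zone is assumed to vary like the others, gave 2913 to 6042 genes from light to middle and 0 to 2447 from middle to dense. Of the 10 RNAs, 0 to 3 were then called from middle to dense (3 to 6 at an unadjusted p under 0.05 in limma). Of the 5 RNAs outside the cytosolic class, 3 to 5 were then called relative to it from light to middle and 1 to 2 from middle to dense, and 1 was called from middle to dense after quantile normalization. Quantile normalization also moved the share of higher genes among those called from 36.0% to 50.6% from light to dense and from 17.6% to 43.3% from middle to dense. Of 40 recomputed mean fractions 10 moved by more than the SD between gradients, all of them between the 22 and the 17 shared fractions of gradient 2. Depth is unknown, so the counting error of Prdx4, the least abundant, cannot be given.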
